A study of Mus musculus with 5 samples.

Results

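Leukocytes of CT26 tumours were compared with leukocytes of 5555 Ptgs+/+ tumours, class by class, in mice. CT26 is a colon carcinoma line of BALB/c mice, and 5555 is a melanoma line of C57BL/6 mice. Cells were matched by the class names in the authors' deposited annotation: cDC1, cDC2, NK cells and T cells carry the same name on both sides, and the class called actDC in CT26 was set against the class called cDC3 in 5555. Both of the latter are referred to as CCR7+ DCs here. The rule gave 3727 cells, 674 from the 5555 Ptgs+/+ library and 3053 from the CT26 library, of 12249 annotated cells in these libraries and 31617 in the series.

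The study sequenced live CD45+ cells, sorted by flow cytometry from dissociated subcutaneous tumours, with droplet-based 3' RNA counting, and it asks how prostaglandins made by tumour cells shape the infiltrate. The 5555 Ptgs+/+ tumours grew in C57BL/6 mice and were taken on day 4, and the CT26 tumours grew in BALB/c mice and were taken on day 12. The labels list no treatment for either, but the CT26 library name contains the word vehicle, and what vehicle these mice may have received is not given in the sources used here. A pair of further 5555 libraries, also from C57BL/6 mice on day 4, is given side by side: tumours of a Ptgs-/- line, which lacks the prostaglandin synthases, and the same tumours in mice depleted of NK cells with anti-NK1.1 (clone PK136) and anti-Asialo GM-1. Each group is 1 library, and the labels do not say how many mice each library pools. Mouse strain, tumour line, day and library therefore cannot be told apart in any value below, and no test between the groups was possible.

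Conventional dendritic cells (DCs) take up tumour antigen and present it to T cells. cDC1s specialise in cross-presentation to CD8+ T cells, cDC2s present mainly to CD4+ T cells, and CCR7+ DCs are a mature state, marked by Ccr7 and Fscn1, that can migrate to lymph nodes. Type I interferon induces a large set of antiviral genes in nearly every cell type, and interferon-gamma, made by NK and T cells, induces antigen presentation genes and the chemokines Cxcl9 and Cxcl10. Prostaglandin E2 raises cAMP in leukocytes, and genes of the CREB, Nr4a and AP-1 families are known to respond to cAMP.

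The 5555 Ptgs+/+ library held 3262 annotated cells and 13341156 UMIs (unique molecular identifiers, each 1 captured RNA molecule), and the CT26 library held 8987 cells and 39748599 UMIs. Median UMIs per cell were 3634 and 3822, and the median share of mitochondrial UMIs was 3.10% and 2.07%. The highest mitochondrial share of any cell was 9.98% in 5555 Ptgs+/+ and 4.99% in CT26, so the range among deposited cells differed. What this unlike range adds to the differences below was not tested. The matrices share 17250 genes, which hold at least 99.97% of UMIs on either side. There were 7 cell barcodes found in both libraries. Per class, the median depth was 5132 and 6871 UMIs for cDC1s (5555 Ptgs+/+ and CT26), 6054 and 5908 for cDC2s, 5305 and 4542 for CCR7+ DCs, 1835 and 2241 for NK cells, and 1642 and 1706 for T cells.

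The class names were checked against marker genes. Summed over 10 markers, cDC1s had 5502 CPM (counts per a fixed total of UMIs, the same in every cell, averaged over cells) in 5555 Ptgs+/+ and 5495 CPM in CT26, and cDC2s had 2142 and 2844 CPM of their own markers. CCR7+ DCs had 11263 and 9009 CPM, NK cells 15372 and 21266 CPM, and T cells 4664 and 6235 CPM. On both sides each class had its own markers above those of the other 4 matched classes. A limit concerns the cDC2s of CT26, where 8 monocyte markers summed to 4498 CPM and so exceeded the cDC2 markers. The cells called NK cells in the NK-depleted library had 354 CPM of NK markers and 4395 CPM of T cell markers, and expression values of that library are not given for NK cells below.

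The CT26 infiltrate held larger shares of cDC1s, NK cells and T cells, and a smaller share of cDC2s. cDC1s made up 1.16% of 5555 Ptgs+/+ cells (38 cells; 95% Clopper-Pearson interval 0.826 to 1.60%) and 3.91% of CT26 cells (351 cells; 3.51 to 4.33%), a ratio of 3.35 (2.40 to 4.67). NK cells made up 4.20% (3.54 to 4.95%) and 15.0% (14.2 to 15.7%), a ratio of 3.57 (3.01 to 4.23). T cells made up 2.02% (1.57 to 2.57%) and 8.53% (7.96 to 9.13%), a ratio of 4.22 (3.29 to 5.41), and the intervals of these 3 ratios overlap.

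cDC2s went the other way, at 11.6% (10.5 to 12.8%) of 5555 Ptgs+/+ cells and 5.31% (4.85 to 5.79%) of CT26 cells, a ratio of 0.457 (0.402 to 0.520). CCR7+ DCs were at 1.66% (1.25 to 2.15%) and 1.25% (1.03 to 1.50%), a ratio of 0.753 (0.545 to 1.04). Among cells with at least 500 genes that ratio was 0.716 (0.519 to 0.989), so whether the interval includes 1 depended on the cells counted. All intervals in this text cover counting error only, not the spread between mice or libraries. In the Ptgs-/- and the NK-depleted Ptgs-/- libraries cDC1s were at 0.706% and 1.39%, cDC2s at 11.2% and 10.5%, CCR7+ DCs at 1.24% and 1.16%, and T cells at 4.58% and 2.81%. NK cells were at 10.9% in the undepleted Ptgs-/- library. CT26 thus lay above every 5555 library for cDC1s, T cells and NK cells and below every one for cDC2s.

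**Figure D1:**
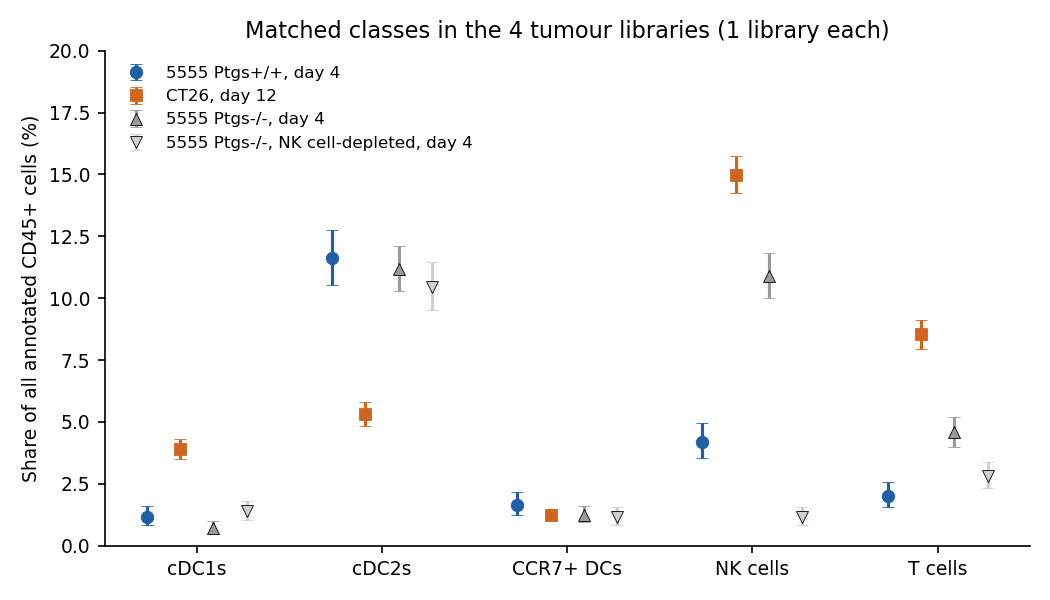
Share of each matched class in percent of all annotated cells of a library (vertical axis), for the 4 tumour libraries. Points are single libraries and error lines are 95% Clopper-Pearson intervals, which cover counting error only. NK cells stand at 4.20% in 5555 Ptgs+/+ and 15.0% in CT26, and cDC2s at 11.6% and 5.31%.

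Shares depend on what else was annotated. The authors' annotation of the 5555 Ptgs+/+ library holds 205 neutrophils (6.28%) and 23 B cells, classes absent from the CT26 annotation, and the CT26 annotation holds 427 monocyte-derived DCs (4.75%), 204 plasmacytoid DCs (2.27%) and 123 proliferating cells (1.37%), classes absent from the 5555 annotation. Within the 5 matched classes alone the ratios were 2.04 for cDC1s, 0.278 for cDC2s, 0.458 for CCR7+ DCs (0.335 to 0.627), 2.17 for NK cells and 2.57 for T cells, in the same order. Among the cells of the 3 DC classes, those with at least 1 UMI of both Ccr7, the lymph node homing receptor, and Fscn1, an actin-bundling protein, were 42 of 471 in 5555 Ptgs+/+ (8.92%; 6.50 to 11.9%) and 99 of 940 in CT26 (10.5%; 8.64 to 12.7%). These intervals overlap, and no NK or T cell on either side held the pair.

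Genes were compared as the difference of log2(mean CPM + 5) between CT26 and 5555 Ptgs+/+, in genes seen in at least 10% of cells of either library. Where the median over all compared genes was farther than 0.1 from 0 it was subtracted, which applied to cDC2s (-0.17), CCR7+ DCs (-0.24) and T cells (-0.14) and not to cDC1s or NK cells (both -0.09). A gene is called higher or lower when it differs by at least 2-fold, with no test behind the call. The share of all compared genes called higher and lower is the background for each gene list. A gene could pass the filter through a single library, so counts of calls describe a list and do not test it. It was 11.7% and 13.2% in cDC1s (750 and 850 of 6429 genes), 7.09% and 6.97% in cDC2s (463 and 455 of 6526), 13% and 13.2% in CCR7+ DCs (678 and 684 of 5197), 7.66% and 11.6% in NK cells (297 and 449 of 3876), and 12.5% and 11.4% in T cells (410 and 376 of 3289).

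Genes induced by type I interferon were higher in CT26 in every matched class. Of 25 listed genes, 24 were in both matrices. Called higher were 19 of 22 compared in cDC1s (background 11.7%), 21 of 24 in cDC2s (background 7.09%), 18 of 21 in CCR7+ DCs (background 13%), 16 of 19 in NK cells (background 7.66%) and 17 of 19 in T cells (background 12.5%). None was called lower in any class. Some members passed the filter only because they were seen in CT26, so their counts describe the list and do not test it.

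The median log2 fold of the list was 2.77 in cDC1s, 2.87 in cDC2s, 2.40 in CCR7+ DCs, 2.06 in NK cells and 2.91 in T cells, beside a median over all genes of -0.09 in cDC1s and NK cells and 0 by centring in the others. With the members that had 0 UMIs in 5555 Ptgs+/+ set to their lower bound, the medians were 2.34 in cDC1s (5 such members), 2.40 in CCR7+ DCs (1) and 2.83 in T cells (3). The sum over all 24 genes, which uses no filter, was 1030.4 CPM in 5555 Ptgs+/+ cDC1s and 6167 CPM in CT26 cDC1s. It was 1693 and 10028 CPM in cDC2s, 1630.3 and 7847 CPM in CCR7+ DCs, 921 and 3909.9 CPM in NK cells, and 1474 and 9293 CPM in T cells.

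The Ptgs-/- and NK-depleted Ptgs-/- libraries had 1416 and 1378 CPM in cDC1s, 2247 and 1947 CPM in cDC2s, 1533 and 1893 CPM in CCR7+ DCs, and 2522 and 1028 CPM in T cells, with 915 CPM in Ptgs-/- NK cells. The CT26 value was above each of them in every class. The gap was not confined to the matched classes: all other annotated cells, mostly monocytes and macrophages, had 2608 CPM in 5555 Ptgs+/+ and 12254 CPM in CT26.

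Summed macrophage markers were 7969 CPM in the other CT26 cells and 250.3 CPM in CT26 T cells. The part of released RNA in the interferon-induced values was not tested. Without cells that held genes of another lineage, the list medians were 2.82, 2.84, 2.29, 2.38 and 2.87 in cDC1s, cDC2s, CCR7+ DCs, NK cells and T cells.

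Several single genes were near the detection limit in 5555 Ptgs+/+ and abundant in CT26. Ifi44, an interferon-induced antiviral gene, had 6.53 CPM in 5555 Ptgs+/+ cDC2s (22 UMIs) and 717 CPM in CT26 cDC2s (2046 UMIs), a log2 fold of 6.14. In cDC1s it had 2 and 1436 UMIs, and after allowing for total UMIs the ratio was 60.3 (95% interval 16.7 to 498). In NK cells it had 1 and 1423 UMIs. Ifi44 was thus near 0 in each of these 5555 classes.

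Ifit2, which binds RNA and restrains viral translation, was at 4.92 and 247 CPM in cDC1s, 7.89 and 327 CPM in cDC2s, 0 and 194 CPM in CCR7+ DCs, 4.30 and 134 CPM in NK cells, and 9.80 and 195 CPM in T cells (5555 Ptgs+/+ and CT26). The values of its relative Ifit3 in cDC2s were 5.37 and 229 CPM. In T cells Ifit3 had 0 and 342 UMIs, at least 8.94-fold higher in CT26 when 0 is read as the 3 counts it allows. Ifit3 and Ifit3b are near-identical copies, so the division of reads between them is uncertain.

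Oasl1, an oligoadenylate synthetase-like protein that restrains translation of Irf7, was at 2.30 and 201 CPM in cDC2s and 3.06 and 258 CPM in CCR7+ DCs. Isg15, a ubiquitin-like modifier, was at 44.8 and 956 CPM in T cells, a log2 fold of 4.41. Rsad2, the antiviral enzyme viperin, was at 6.45 and 150.2 CPM in CCR7+ DCs. In each of these 3 genes the CT26 level was above that of 5555 Ptgs+/+ by more than the 2-fold threshold.

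The upstream sequences of Ifit3, Rsad2, Isg15 and the chemokine gene Cxcl10, described next, are printed because these interferon-induced genes were much higher in CT26 and each holds the same sequence feature. They were chosen after the values and the matches were seen. The feature is the interferon-stimulated response element, searched as GAAA, any 2 bases and GAAA again, on both strands and with overlapping matches counted. The sequences are the 250 bases before the annotated start, from RefSeq on GRCm38.p6 (mm10), written 5′ to 3′ on the gene's strand, with each match in capitals. A capital run that starts with TTTC is the same motif on the opposite strand. They cover chr5:92348890-92349139 (minus strand) for Cxcl10, chr19:34583279-34583528 (plus) for Ifit3, chr12:26456453-26456702 (minus) for Rsad2 and chr4:156200819-156201068 (minus) for Isg15.
Cxcl10: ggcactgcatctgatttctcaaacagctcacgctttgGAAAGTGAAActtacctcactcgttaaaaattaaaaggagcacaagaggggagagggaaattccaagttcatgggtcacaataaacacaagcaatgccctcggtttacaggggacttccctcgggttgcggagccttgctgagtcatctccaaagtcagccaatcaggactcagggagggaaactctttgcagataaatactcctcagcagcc
Ifit3: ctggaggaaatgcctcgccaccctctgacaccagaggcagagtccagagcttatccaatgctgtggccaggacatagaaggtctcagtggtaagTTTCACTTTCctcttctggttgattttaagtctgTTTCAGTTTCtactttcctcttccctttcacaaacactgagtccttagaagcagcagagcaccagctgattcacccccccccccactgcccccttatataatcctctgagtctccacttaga
Rsad2: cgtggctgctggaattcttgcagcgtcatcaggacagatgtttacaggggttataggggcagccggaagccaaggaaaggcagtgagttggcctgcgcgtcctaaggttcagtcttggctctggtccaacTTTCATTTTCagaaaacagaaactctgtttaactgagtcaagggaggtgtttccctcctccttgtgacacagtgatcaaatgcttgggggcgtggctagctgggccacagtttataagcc
Isg15: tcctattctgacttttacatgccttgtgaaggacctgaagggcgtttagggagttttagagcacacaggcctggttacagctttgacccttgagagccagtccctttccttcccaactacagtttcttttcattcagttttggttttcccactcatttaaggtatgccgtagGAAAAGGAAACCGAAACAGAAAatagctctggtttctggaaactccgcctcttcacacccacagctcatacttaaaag
The Ifit3 window held 2 matches, the Isg15 window 3 overlapping ones, and the other windows 1 each. Of the 18 listed type I interferon-induced genes with an entry, 9 held the motif (50%), beside 978 of all 32851 promoter windows of this length (2.98%) and 428 of 12425 genes of both matrices (3.44%). A match is a description of the letters and neither a binding site nor a cause.

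Genes of the interferon-gamma response were also higher in CT26, with the largest medians in cDC2s and T cells. Of 22 listed genes, 14 of 18 compared were higher and 0 lower in cDC2s (median 2.20), 11 of 14 higher and 0 lower in T cells (median 1.60), 8 of 16 higher and 2 lower in CCR7+ DCs (median 1.02), 7 of 15 higher and 1 lower in cDC1s (median 0.87), and 4 of 11 higher and 1 lower in NK cells (median 0.53). The background of higher calls was 7.09% in cDC2s, 12.5% in T cells, 13% in CCR7+ DCs, 11.7% in cDC1s and 7.66% in NK cells. With members at 0 UMIs in 5555 Ptgs+/+ at their bound, the cDC1 median was 0.82 with 6 higher. Such members passed the filter only through CT26, so the counts of this list also describe it and do not test it. The sum over all 22 genes was 777 and 2466 CPM in cDC2s, 1195 and 3948 CPM in T cells, and 1009.7 and 2006 CPM in NK cells.

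Cxcl10, a chemokine that draws Cxcr3+ T and NK cells, was higher in all 5 classes. It was at 0 and 88.1 CPM in cDC1s, 22.1 and 638 CPM in cDC2s, 2.26 and 249 CPM in CCR7+ DCs, 3.60 and 198 CPM in NK cells, and 18.0 and 587 CPM in T cells. The other annotated cells of CT26 had 783 CPM, with a Cxcl10 UMI in 32.6% of cells, against 18.4% of CT26 T cells. How much of the lymphocyte value came from released RNA was not tested.

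**Figure D2:**
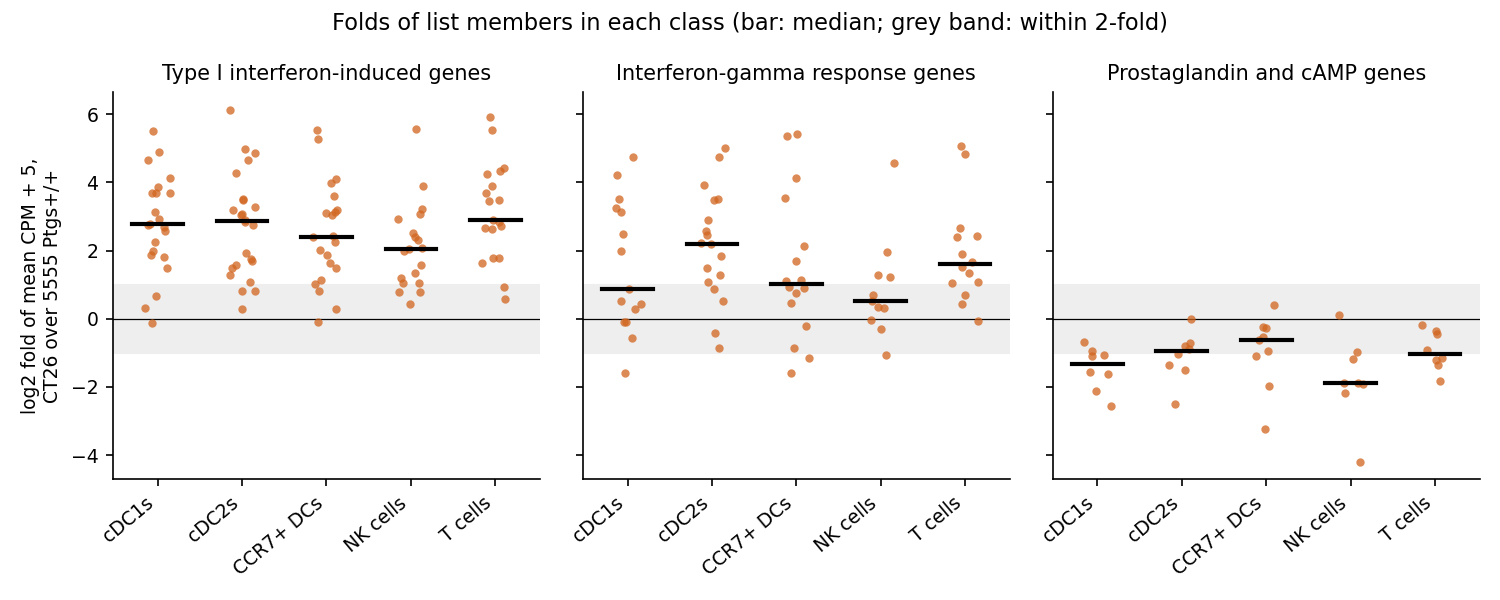
Log2 fold (CT26 over 5555 Ptgs+/+, of log2(mean CPM + 5)) of the compared members of a gene list, by class. The lists are type I interferon-induced, interferon-gamma response, and prostaglandin and cAMP genes. Points are genes, bars are medians and the grey band is within 2-fold. The type I interferon-induced medians lie between 2.06 and 2.91 in all 5 classes, and the prostaglandin and cAMP medians between -1.89 and -0.63.

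Across the 2498 genes compared in all 5 classes, the 8 whose smallest log2 fold over the classes was highest were Gm10260, Ifi202b, Gm26825, Cxcl10, Ifit2, Tpm3-rs7, Mx1 and Ifi27l2a. Ifi202b (chr1:173962569-173982844, GRCm38) encodes a DNA-binding interferon-inducible protein whose expression is known to differ between inbred strains. It had 0 UMIs in every matched class of 5555 Ptgs+/+ and 302, 464, 151, 109 and 108 CPM in CT26 cDC1s, cDC2s, CCR7+ DCs, NK cells and T cells. The other 5555 libraries held at most 1 Ifi202b UMI per matched class.

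Gm10260, a predicted gene, had 340.4 CPM in CT26 cDC2s and 0 in 5555 Ptgs+/+ cDC2s, and Gm26825, also a predicted gene, had 390.5 CPM in CT26 NK cells and 0 in 5555 Ptgs+/+ NK cells. Tpm3-rs7 (chr14:113314601-113316720), annotated as a pseudogene related to the tropomyosin gene Tpm3, was at 24.2 and 353 CPM in cDC1s. Mx1 (chr16:97447035-97462906), an antiviral dynamin-like GTPase annotated as a transcribed pseudogene in this C57BL/6 genome, was at 22.5 and 279 CPM in CCR7+ DCs. Tpm3-rs7 shares sequence with Tpm3, and Ifi202b with other genes of its family, so the division of reads between these copies is uncertain.

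Ifi27l2a, an interferon-induced gene of mitochondrial and nuclear membranes, was abundant on both sides. It was at 152 and 2029.9 CPM in cDC1s and 482 and 3580 CPM in cDC2s. In T cells it was at 664 and 4317 CPM. Its log2 folds over the 5 classes ran from 2.83 to 3.69.

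The 8 genes lowest across classes were Trim12a, Apobec3, Rnf149, Cxcr4, Arap1, Fosl2, Zfp36 and Lta4h. Trim12a (chr7:104299893-104315558), a member of the Trim5 family of retroviral restriction factors, was at 164 and 1.03 CPM in NK cells and 177 and 0 CPM in T cells. Apobec3 (chr15:79892058-79918218), a cytidine deaminase that restricts retroviruses and is known to be expressed more in C57BL/6 than in BALB/c mice, was at 303 and 37.5 CPM in cDC1s and 395 and 42.9 CPM in CCR7+ DCs. The Ptgs-/- and NK-depleted libraries resembled 5555 Ptgs+/+ more than CT26: Trim12a was at 203 and 144 CPM in their T cells, and Apobec3 at 530.4 and 599 CPM in their CCR7+ DCs.

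Cxcr4, the receptor that retains cells in Cxcl12-rich tissue, was at 338 and 23.8 CPM in cDC2s and 659 and 77.8 CPM in NK cells. Zfp36, which destabilises cytokine mRNAs, was at 1644 and 294 CPM in cDC1s and 1249 and 308 CPM in T cells. Lta4h, the enzyme that makes leukotriene B4, was at 58.6 and 2.84 CPM in CCR7+ DCs. The ubiquitin ligase gene Rnf149 was at 677 CPM in 5555 Ptgs+/+ cDC2s, 295 and 308 CPM in the other 5555 libraries, and 110.2 CPM in CT26, so CT26 lay below all 3.

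**Figure D3:**
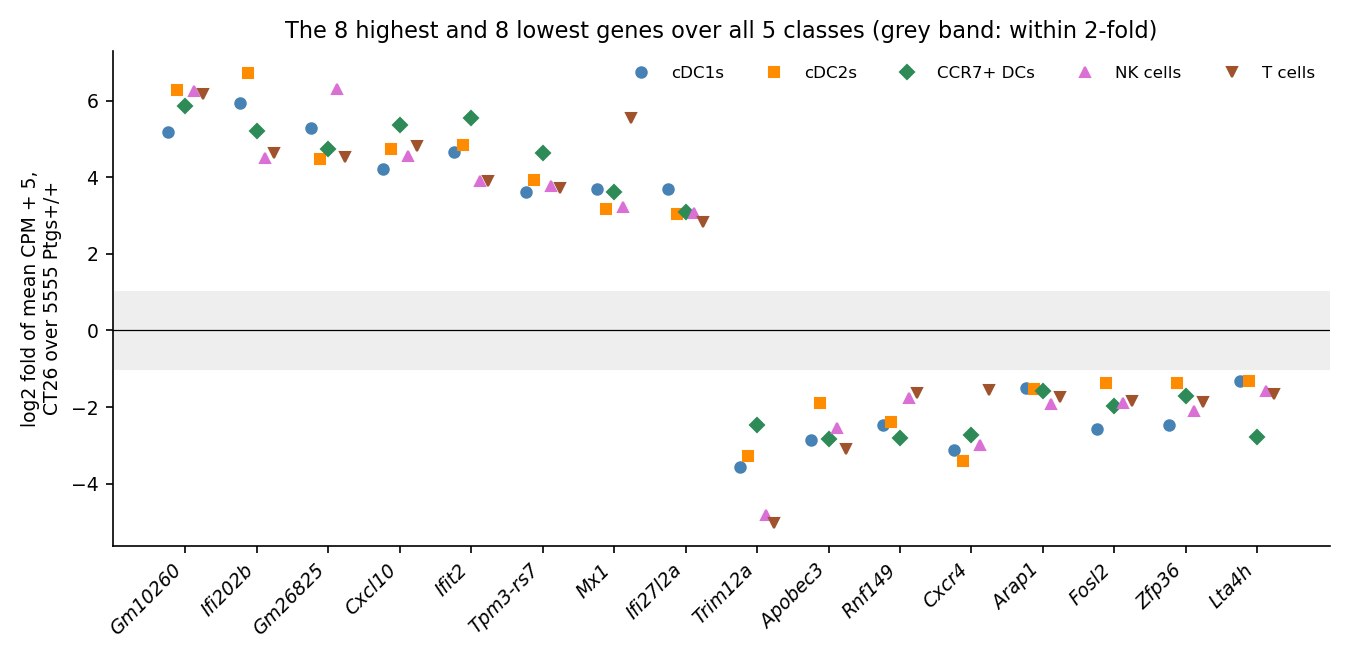
Log2 fold (CT26 over 5555 Ptgs+/+) in each of the 5 classes for the 8 genes highest and the 8 lowest across classes. Gm10260 lies between 5.20 and 6.28, and Trim12a between -5.04 and -2.48.

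Genes on a joint list of prostaglandin synthesis and the cAMP response were called lower and never higher in CT26 in the matched classes. Of 14 listed genes, 6 of 8 compared were lower in cDC1s (background 13.2%), 4 of 8 in cDC2s (background 6.97%), 3 of 9 in CCR7+ DCs (background 13.2%), 6 of 8 in NK cells (background 11.6%) and 4 of 8 in T cells (background 11.4%). The medians were -1.33, -0.96, -0.63, -1.89 and -1.02. Lower calls in cDC1s and T cells included none of the synthesis genes Ptgs1, Ptgs2 and Ptges. Ptgs2 was compared in cDC2s, CCR7+ DCs and NK cells only, and Ptges had 0 UMIs on both sides in every class. The sum over all 14 genes was 1974 and 645 CPM in cDC1s, 3511 and 996 CPM in NK cells, and 3325 and 1282 CPM in T cells.

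The same sum in cDC1s was 2263 CPM in the Ptgs-/- and 2612 CPM in the NK-depleted Ptgs-/- library, both above 5555 Ptgs+/+. In cDC2s it was 2401 CPM in 5555 Ptgs+/+, 1729 and 3536 CPM in the other 5555 libraries and 901 CPM in CT26. CT26 was thus the lowest of the 4 libraries in both DC classes. Fosl2, an AP-1 subunit, was at 785 CPM in 5555 Ptgs+/+ NK cells, 645 CPM in Ptgs-/- NK cells and 206 CPM in CT26 NK cells. Crem, a cAMP-responsive transcriptional regulator, was at 208 CPM in 5555 Ptgs+/+ cDC1s and 44.2 CPM in CT26 cDC1s. It was at 45.05 and 72.8 CPM in cDC1s of the Ptgs-/- and NK-depleted Ptgs-/- libraries, so the 5555 Ptgs+/+ library stood apart. In T cells Crem was at 479 and 183 CPM in 5555 Ptgs+/+ and CT26. The nuclear receptor gene Nr4a1 was at 659.8 and 141 CPM in NK cells. Of the immediate-early list, which shares Fosl2 and whose genes are known to respond to tissue dissociation, 22 of 71 comparisons over the 5 classes were lower and 8 higher, and its medians ran from -0.96 to 0.08. The share of all compared genes called lower was 6.97 to 13.2% by class.

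cDC1s of CT26 combined high interferon-induced genes with genes of dividing cells, and had less Ccl4, Socs3 and cholesterol synthesis genes than 5555 Ptgs+/+ cDC1s. Cell cycle genes were higher in 14 of 16 compared (background 11.7%), with none lower and a median of 2.63. The median was 2.29 with the 6 members at 0 UMIs in 5555 Ptgs+/+ set to their bound (13 higher). Those 6 members passed the filter only through CT26, so the counts describe the list and do not test it. The sum of the 17 genes was 535 CPM in 5555 Ptgs+/+, 3164 and 2023 CPM in the Ptgs-/- and NK-depleted libraries, and 2149.7 CPM in CT26. CT26 cDC1s therefore lay within the range of the 5555 libraries, where the 5555 Ptgs+/+ library was the lowest.

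Mki67, the proliferation antigen, had 0 UMIs in 38 cDC1s of 5555 Ptgs+/+ and 576 in 351 cDC1s of CT26, at least 16.1-fold higher, but was at 173 and 69.1 CPM in the other 5555 libraries beside 178 CPM in CT26. Top2a, the topoisomerase of dividing cells, had 0 UMIs in 5555 Ptgs+/+, 225 and 131 CPM in the other 5555 libraries and 169.5 CPM in CT26. Hist1h1b, a linker histone of S phase, was at least 28.4-fold higher in CT26 than in 5555 Ptgs+/+. The annotation has a separate class of proliferating cells in CT26 only.

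Among cDC1 markers, Xcr1, the receptor for the chemokine Xcl1, was at 53.2 CPM in 5555 Ptgs+/+ and 366 CPM in CT26, with 426 and 352 CPM in the other 5555 libraries. Clec9a, a receptor for dead cells, was at 77.7 and 178 CPM, with 218 and 189 CPM in the other 5555 libraries, so CT26 lay below both of these. Itgae, the integrin CD103, was at 36.0 and 171 CPM in 5555 Ptgs+/+ and CT26. The transcription factor genes Irf8 (2336 and 2301 CPM) and Batf3 (252 and 219 CPM) differed little. Flt3, the receptor for the DC growth factor Flt3 ligand, was lower in CT26, at 377 and 103 CPM.

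Chemokine genes of cDC1s went in both directions. Of the genes listed as attracting or activating T and NK cells, 4 of 8 compared were higher and 2 lower (background 11.7% and 13.2%). The median of this list was 0.59, while its sum was 3139.6 CPM in 5555 Ptgs+/+ and 1098 CPM in CT26. The sum was 1424 and 983 CPM in the Ptgs-/- and NK-depleted libraries, so the CT26 sum lay between these. The median turned to -0.18 in genes seen in at least 20% of cells and to -1.05 in cells thinned to 2000 UMIs. Ccl4, a chemokine gene that made up most of the 5555 Ptgs+/+ sum, was at 2818 and 409.8 CPM, and its relative Ccl3 at 148 and 29.2 CPM. In the other 5555 libraries Ccl4 was at 1187 and 744 CPM and Ccl3 at 52.3 and 64.1 CPM, so CT26 was the lowest for both. Cxcl9 had 1 UMI in 5555 Ptgs+/+ and 643 in CT26, a ratio of 54.0 (9.66 to 2136), and Cxcl10 was at least 6.83-fold higher.

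Ifitm1, an interferon-induced transmembrane protein, had the lowest log2 fold of CT26 cDC1s, at 3699 and 229 CPM (log2 fold -3.99). Its level was 74.1 and 17.0 CPM in the other 5555 libraries, so the 5555 Ptgs+/+ library stood apart and CT26 lay above both others. Ly6a, the surface protein Sca-1, was at 19.8 and 471 CPM. The lowest genes also included Socs3, an inhibitor of cytokine signalling (421 and 46.7 CPM), the interleukin-17 receptor gene Il17ra (158 and 14.0 CPM), Rnaset2b, and the predicted genes Gm19951 and Gm26740.

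Of 15 cholesterol synthesis genes, 5 of 13 compared were lower in cDC1s (background 13.2%) and 0 higher, with a median of -0.82. Their sum was 1342 CPM in 5555 Ptgs+/+, 986 and 845 CPM in the other 5555 libraries and 785 CPM in CT26. CT26 was thus the lowest and 5555 Ptgs+/+ the highest. Antigen presentation genes differed little in cDC1s, where the background was 11.7% higher and 13.2% lower. Of 20 MHC class I genes 1 was higher and 1 lower (median -0.01), and 1 of 11 MHC class II genes was higher and 2 lower (median -0.15). Il1b, the inflammatory cytokine, was at 3799 and 1602 CPM. Genes listed as tumour-promoting inflammation summed to 3974 CPM in 5555 Ptgs+/+, 1780 and 1755 CPM in the other 5555 libraries and 1830 CPM in CT26. For that sum the 5555 Ptgs+/+ library stood apart.

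cDC2s had the most cells on the smaller side (379 and 477) and a similar depth in both libraries, and so the smallest counting errors. The highest genes of CT26 cDC2s after Ifi202b, Gm10260 and Ifi44 were Gbp2b, Cxcl9, Oasl1, Ifit2 and Ly6c1. Gbp2b, an interferon-induced guanylate-binding protein, had 0 UMIs in 5555 Ptgs+/+ and 434 in CT26, at least 129-fold higher. Cxcl9 was at 4.46 and 268 CPM (log2 fold 5.02). Ly6c1, a surface antigen of the Ly6 family, had 2 and 423 UMIs, a ratio of 189 (51.9 to 1562). Sequence similarity within the Gbp and Ly6 families makes the division between their members uncertain.

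Of the T and NK cell-attracting and -activating list 4 of 9 compared were higher in CT26 cDC2s (background 7.09%) and 1 lower (background 6.97%), with a median of 0.84. Ccl5, a chemokine that draws T cells, was at 11.4 and 356 CPM (log2 fold 4.63). Ccl17, a ligand of Ccr4, had 0 UMIs in 5555 Ptgs+/+ and 292 in CT26, at least 86.8-fold higher, but was at 236 and 146 CPM in the Ptgs-/- and NK-depleted libraries beside 97.5 CPM in CT26. Ccl2, which recruits monocytes, was at 9.42 CPM in 5555 Ptgs+/+, 168 and 225 CPM in the other 5555 libraries and 123 CPM in CT26. For Ccl17 and Ccl2 CT26 thus lay above 5555 Ptgs+/+ alone and below both Ptgs-/- libraries. Cxcl16, the Cxcr6 ligand, was lower in CT26, at 375 and 139 CPM.

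Ptgs2, the inducible cyclooxygenase that starts prostaglandin synthesis, was lower in CT26 cDC2s, at 463 CPM in 5555 Ptgs+/+ and 68.8 CPM in CT26 (log2 fold -2.50), with 208 and 467 CPM in the Ptgs-/- and NK-depleted libraries. The list of tumour-promoting inflammation, to which it belongs, had 3 of 12 compared higher (background 7.09%) and 4 lower (background 6.97%), with a median of -0.57. Il1b was at 3608 and 2514 CPM. The list as a whole did not go one way in cDC2s.

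The lowest genes of CT26 cDC2s were Spint1, Hmox1, Sash1, Gm26740, Slc7a11, Fabp5, Cxcr4 and Trim12a. Spint1, an inhibitor of cell-surface serine proteases, had 587 UMIs in 5555 Ptgs+/+ and 3 in CT26, a ratio of 219 (74.7 to 1067) in favour of 5555 Ptgs+/+. Hmox1, heme oxygenase, was at 303 and 12.9 CPM. Slc7a11, the cystine transporter, was at 160.4 and 8.17 CPM. In the Ptgs-/- and NK-depleted libraries Hmox1 was at 153 and 58.8 CPM and Spint1 at 119 and 81.4 CPM. The fatty acid-binding protein gene Fabp5 was at 609.9 CPM in 5555 Ptgs+/+, 144 and 96.3 CPM in the other 5555 libraries and 46.7 CPM in CT26.

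Antigen presentation genes of MHC class I were higher in 6 of 20 compared in cDC2s (background 7.09%), with none lower and a median of 0.59. Psmb8, an immunoproteasome subunit, was at 355 and 810.3 CPM. Among MHC class II genes 1 was higher and 2 lower (background 6.97%) of 11 (median 0.19). Mgl2, the lectin CD301b, was at 74.9 and 1060.2 CPM (log2 fold 3.91), and Cd209a, another cDC2 lectin, at 526 and 749 CPM. Flt3 was lower again, at 127 and 21.2 CPM, and Tnfsf4, the co-stimulatory OX40 ligand, was at 48.3 and 4.60 CPM.

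Markers of monocytes moved with these differences. Summed over 8 genes they were 1769 CPM in 5555 Ptgs+/+ cDC2s, 3525 and 3162 CPM in the other 5555 libraries and 4498 CPM in CT26 cDC2s. Macrophage markers were 1023 and 835 CPM in 5555 Ptgs+/+ and CT26. The part of monocyte-like cells in the cDC2 values was not tested. Monocyte-derived DCs are a class of their own in the CT26 annotation only.

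CCR7+ DCs of CT26 carried more T cell-attracting chemokines and lower levels of hypoxia and inflammation genes. Of the attracting and activating list, 6 of 10 compared were higher (background 13%) and 0 lower (median 1.81). Its sum was 4370.4 CPM in 5555 Ptgs+/+ and 16381 CPM in CT26, but 12105 and 10417 CPM in the Ptgs-/- and NK-depleted libraries. For this sum the 5555 Ptgs+/+ library was thus the lowest of the 4, and CT26 was above the 3 others. Ccl5 made up most of the CT26 sum. The remaining members summed to less in CT26 than in either Ptgs-/- library.

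Ccl5, a member of this list, was at 1653 CPM in 5555 Ptgs+/+ and 11316 CPM in CT26 (log2 fold 3.01), with 5474 and 4425 CPM in the Ptgs-/- and NK-depleted libraries. Ccl17 had 2 and 428 UMIs, a ratio of 116 (31.8 to 958), but was higher still in the Ptgs-/- library, at 1393 CPM beside 567 CPM in the NK-depleted library and 618 CPM in CT26. Ccl22, the other Ccr4 ligand, was at 1089 CPM in 5555 Ptgs+/+, 3309 and 2985 CPM in the other 5555 libraries and 1849 CPM in CT26. Both Ccr4 ligands of CT26 thus lay between the 5555 Ptgs+/+ and the Ptgs-/- library.

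The Cxcr3 ligands did not follow that order. Cxcl9 was at 7.27 CPM in 5555 Ptgs+/+ (1 UMI), 73.3 and 21.8 CPM in the Ptgs-/- and NK-depleted libraries, and 440.2 CPM in CT26 (222 UMIs). Cxcl10 was at 2.26, 40.3, 176 and 249 CPM in the same order of libraries. CT26 was the highest of the 4 for both genes.

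Among cytokines, Il15, which sustains NK and memory T cells, was at 16.1 and 81.5 CPM, with 104 and 58.5 CPM in the other 5555 libraries. Il12b, a subunit of interleukin-12 that drives interferon-gamma production, was at 356 CPM in 5555 Ptgs+/+, 395 and 543 CPM in the other 5555 libraries and 778 CPM in CT26 (log2 fold 1.35). Cd40, the receptor for T cell help, was at 194 and 334 CPM. Cd274, the inhibitory ligand PD-L1, was at 636 and 294 CPM, with 222 and 239 CPM in the other 5555 libraries, short of 2-fold once the class median was subtracted (log2 fold -0.87).

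**Figure D4:**
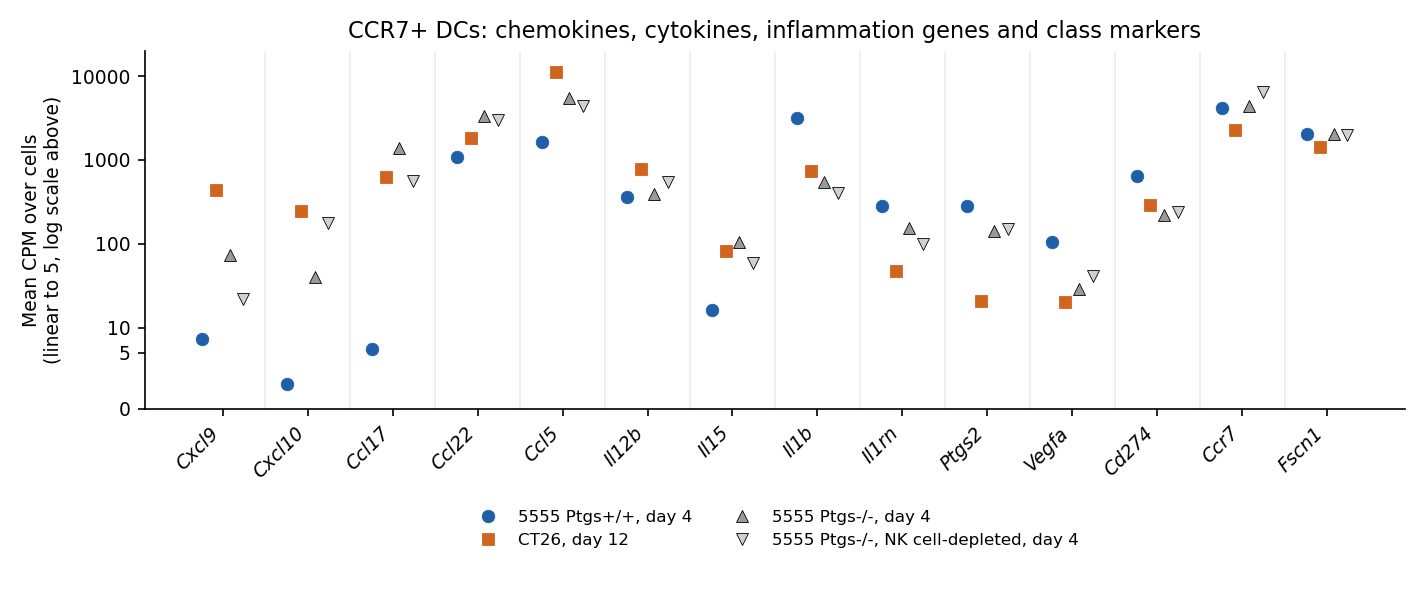
Mean CPM of chemokine, cytokine and inflammation genes in CCR7+ DCs of the 4 tumour libraries, on an axis that is linear to 5 CPM and logarithmic above. Each point is 1 library; Ccl17 stands at 5.61 CPM in 5555 Ptgs+/+ and 618 CPM in CT26, and Il1b at 3169 and 746 CPM.

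Tumour-promoting inflammation genes were lower in 5 of 7 compared in CCR7+ DCs (background 13.2%), with none higher and a median of -1.84. Their sum was 4569.7 CPM in 5555 Ptgs+/+, 1076 and 906 CPM in the Ptgs-/- and NK-depleted libraries and 1201 CPM in CT26, so CT26 lay near the Ptgs-/- tumours. Il1b was at 3169, 544, 404 and 746 CPM in that order, and Ptgs2 was at 285 and 21.0 CPM in 5555 Ptgs+/+ and CT26 (log2 fold -3.25). The angiogenic factor gene Vegfa was at 105 and 20.5 CPM, and Il1rn, the interleukin-1 receptor antagonist, at 285 and 47.4 CPM.

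Hypoxia and glycolysis genes were lower in 7 of 13 compared (background 13.2%), with none higher and a median of -1.07. Their sum was 5764 CPM in 5555 Ptgs+/+, 3281 and 1943 CPM in the other 5555 libraries and 2241 CPM in CT26. Gapdh, a glycolytic enzyme, was at 2403 and 820.3 CPM, and Bnip3, a mitophagy receptor induced by low oxygen, was at 70.3 and 10.7 CPM. The CT26 value lay within the range of the Ptgs-/- libraries for the sum.

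Single genes with the largest negative folds were Crispld2, Fabp4, Mmp14, Sema4d, Arhgef10l, Prdm1, Pgf and Hsd17b10. Crispld2, a secreted protein, had 38 UMIs in 5555 Ptgs+/+ and 0 in CT26, at least 23.4-fold lower. Fabp4, a fatty acid-binding protein, was at 538 and 10.7 CPM, with 34.3 and 53.1 CPM in the other 5555 libraries, so the 5555 Ptgs+/+ library stood apart. The growth factor gene Pgf had 23 and 0 UMIs, at least 14.2-fold lower, and Sema4d, a semaphorin, 26 and 0 UMIs, at least 16.0-fold lower. These counts come from 54 cells on the 5555 Ptgs+/+ side. The log2 fold of Pgf ran from -5.88 to -0.76 over the settings run, so it fell short of 2-fold under some alternative.

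Maturity markers of CCR7+ DCs were within 2-fold for most. Ccr7 was at 4113 and 2251 CPM, Fscn1 at 2054 and 1406 CPM and Marcksl1 at 1166 and 1029 CPM. Cacnb3, a calcium channel subunit, was higher in CT26, at 407 and 771 CPM. Of MHC class II genes 3 of 11 compared were lower (background 13.2%) and 0 higher (median -0.36). Of MHC class I genes 5 of 20 were higher (background 13%) and 0 lower (median 0.50). H2-D1, a classical class I gene, was at 2546 and 4927 CPM. MHC genes are highly polymorphic between strains, so reads of BALB/c alleles may align differently to the C57BL/6 reference, which was not tested.

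NK cells of CT26 held more granzyme B and Ncr1 RNA and less Tcf7 and S1pr1 RNA. Several Ly49 receptor genes of the reference genome also had lower CPM in CT26. Gzmb, the serine protease that triggers death of target cells, was at 377 CPM in 5555 Ptgs+/+, 582 CPM in Ptgs-/- and 2789 CPM in CT26 (log2 fold 2.87). A Gzmb UMI was found in 43.8% and 83.8% of NK cells, or 32.8% and 72.4% after thinning every cell to 1000 UMIs. In cDC2s, which should lack the gene, the thinned shares were 0.264% and 3.35%. Thinning left 128 and 1299 NK cells.

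Other effector genes differed less. Prf1, perforin, was at 921 and 1473 CPM, and Gzma at 7102 and 12279.7 CPM, both short of 2-fold. Xcl1, the chemokine ligand of Xcr1, was at 322 and 798 CPM (log2 fold 1.30). Ifng, interferon-gamma itself, was at 268 and 221 CPM (log2 fold -0.27). Gzmc was lower in CT26, at 1172 CPM in 5555 Ptgs+/+, 22.9 CPM in Ptgs-/- and 94.7 CPM in CT26, so the 5555 Ptgs+/+ library stood apart from both. The log2 fold of Gzmc ran from -3.91 to -0.63 over the settings run, so it fell short of 2-fold under some alternative. Of the cytotoxic effector list 2 of 13 compared were higher (background 7.66%) and 1 lower (background 11.6%), with a median of 0.34.

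Several genes of the NK receptor families were much lower in CT26. Klra8, the activating receptor Ly49H (chr6:130115226-130129898), had 171 UMIs in 137 cells of 5555 Ptgs+/+ and 3 in 1346 cells of CT26, a ratio of 636 (214 to 3115) in favour of 5555 Ptgs+/+. It was at 776 CPM in Ptgs-/-. Klra4, the receptor Ly49D, was at 531 and 20.3 CPM, Klra9 at 340.4 and 65.0 CPM, and the lectin receptor gene Klrb1b at 342 and 19.9 CPM. Ly49 genes are known to differ in number and sequence between inbred strains, and Klra8 is known to be absent from BALB/c mice. Reads of BALB/c Ly49 genes may align differently to the reference genome, which was not tested. The lower values of these Ly49 genes therefore do not show how much Ly49 RNA the CT26 NK cells held.

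Klrb1c, which encodes NK1.1, was at 586 and 217 CPM (log2 fold -1.41), whereas Ncr1, the activating receptor NKp46, was at 357 and 1071 CPM (log2 fold 1.57). An Ncr1 UMI was seen in 28.1% and 60.7% of NK cells at 1000 UMIs, beside 0 of 379 cDC2s in 5555 Ptgs+/+, which allows a share of up to 0.792% (3 counts of the total), and 1.68% of cDC2s in CT26. The receptor genes Klrk1, which encodes NKG2D (873 and 667 CPM), and Klrd1, which encodes CD94 (1011 and 904 CPM), were within 2-fold. Over the NK receptor list 3 of 19 compared were higher (background 7.66%) and 6 lower (background 11.6%), with a median of -0.30.

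Tcf7 and the egress receptors S1pr1 and S1pr5 were lower in CT26 NK cells. Tcf7, the transcription factor TCF-1, was at 277 and 46.6 CPM, with a UMI in 20.3% and 4.39% of NK cells at 1000 UMIs. S1pr1, the receptor that lets lymphocytes leave tissue, was at 137 and 7.63 CPM, and S1pr5, its NK cell relative, at 78.0 and 25.5 CPM. Of the tissue residency and egress list 3 of 9 compared were lower (background 11.6%) and 0 higher (median -0.91). Trdc, the constant segment of the delta T cell receptor, was at 78.4 and 250 CPM in NK cells, and summed T cell markers were 1116 and 1413 CPM.

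**Figure D5:**
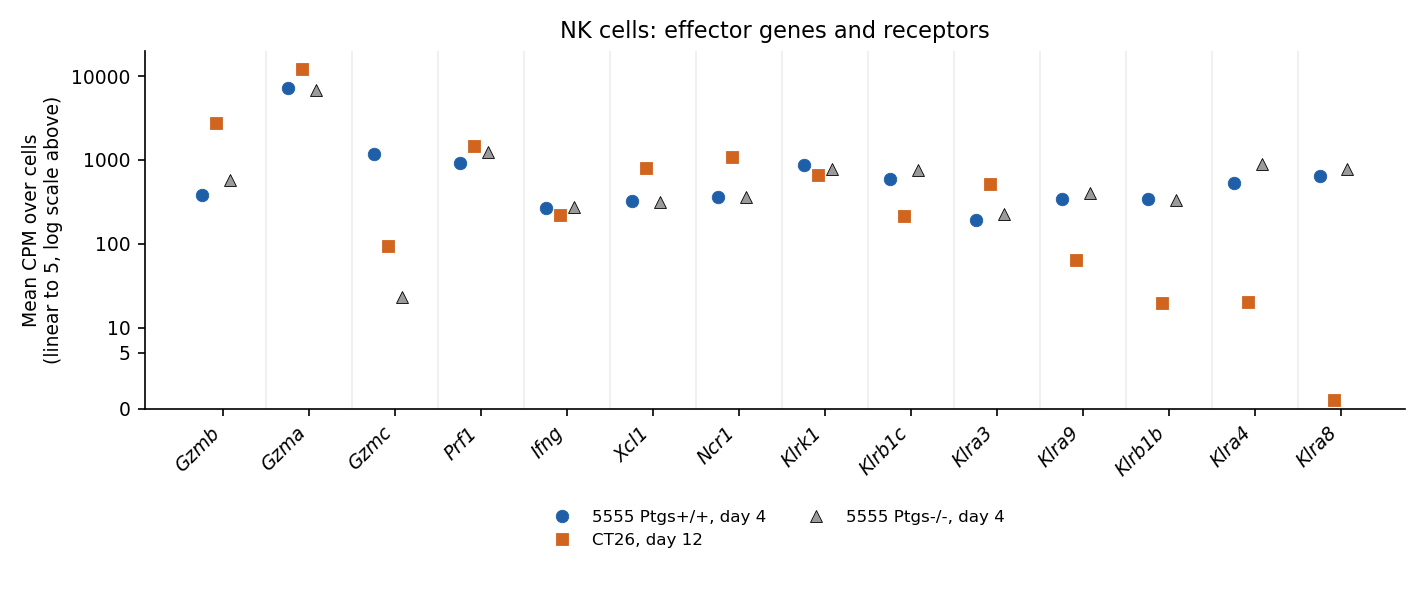
Mean CPM of effector and receptor genes in NK cells of 5555 Ptgs+/+, 5555 Ptgs-/- and CT26 tumours, on an axis that is linear to 5 CPM and logarithmic above, 1 point per library. Gzmb stands at 377, 582 and 2789 CPM, and Klra8 at 639, 776 and 0.828 CPM.

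Inflammation genes of NK cells were lower in CT26 together with neutrophil markers. Il1b was at 709 and 47.6 CPM, Cxcl2, a neutrophil-recruiting chemokine, at 403 and 80.0 CPM, and Ptgs2 at 201 and 6.30 CPM. All 4 compared members of the inflammation list were lower (background 11.6%), with a median of -3.01. The 8 neutrophil markers summed to 1189.9 CPM in 5555 Ptgs+/+, 119 CPM in Ptgs-/- and 58.7 CPM in CT26, and S100a9, a neutrophil calcium-binding protein, was at 634 and 19.6 CPM. Without cells that held genes of another lineage the median of the inflammation list was -1.22, and Cxcl2 turned from -2.26 to 0.23. These differences thus shrank when cells with genes of another lineage were left out.

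T cells of CT26 had more of the interferon-induced genes and less of the type 2 lymphocyte genes Gata3 and Il1rl1. Mx1 had 0 and 275 UMIs, at least 7.19-fold higher, and Iigp1, an immunity-related GTPase, 0 and 193 UMIs, at least 5.05-fold higher. The DNA-sensor family members Ifi204 and Ifi214 had 0 UMIs in 66 T cells of 5555 Ptgs+/+ and 157 and 315 UMIs in CT26, at least 4.10-fold and 8.24-fold higher. Isg20, an antiviral exonuclease, had 1 and 352 UMIs, a ratio of 27.6 (4.92 to 1094). The 66 cells on the 5555 Ptgs+/+ side limit what these bounds can show.

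MHC class I genes were higher in 9 of 20 compared in T cells (background 12.5%), with none lower and a median of 0.80. Psmb8 was at 173 and 835 CPM, and H2-D1 at 1546 and 4391 CPM. The sum of the list was 10085 CPM in 5555 Ptgs+/+, 13178 and 13272 CPM in the other 5555 libraries and 15855 CPM in CT26. MHC class II genes were also higher in 4 of 5 compared (background 12.5%), in cells where macrophage markers were 71.0 and 250.3 CPM. The part of released RNA was not tested.

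Among effector genes, Ifng had 1 and 77 UMIs, a ratio of 6.04 (1.05 to 242), and was at 92.8 CPM in Ptgs-/- beside 62.7 CPM in CT26. Gzma was at 210.4 and 89.6 CPM but was seen in 3.03% and 11.2% of T cells, so its direction depended on the measure. Gata3, the type 2 master regulator, was at 474 CPM in 5555 Ptgs+/+, 694 and 1139.6 CPM in the other 5555 libraries and 172 CPM in CT26. Il1rl1, the interleukin-33 receptor, was at 295 and 77.5 CPM. After thinning to 1000 UMIs, Gata3 was seen in 29.5% and 13.6% of T cells and Il1rl1 in 13.1% and 6.38%. In cDC2s of 5555 Ptgs+/+ each was seen in 0 of 379 cells, which allows a share of up to 0.792%. In cDC2s of CT26 Gata3 was seen in 0 of 477 cells (up to 0.629%) and Il1rl1 in 1.89%.

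The 8 markers of type 2 innate lymphoid cells (ILC2s) summed to 1789 CPM in 5555 Ptgs+/+ T cells, 2124 and 3235 CPM in the other 5555 libraries and 908 CPM in CT26. This list includes Gata3 and Il1rl1. Cd3e, a subunit of the T cell receptor complex, was seen in 53.0% and 63.8% of the cells called T cells, and how many of the others were ILC2s was not tested. Markers of mast cells and basophils summed to 47.0 CPM in 5555 Ptgs+/+ T cells and 441 CPM in CT26 T cells. They were at 44.6 and 57.4 CPM in the other 5555 libraries. The part of such cells or of their RNA in the T cell values was not tested.

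The lineage genes Cd4 (107 and 131 CPM) and Foxp3, the regulatory T cell factor (94.3 and 117 CPM), were within 2-fold. Cd8a was seen in 4.55% and 4.17% of T cells. Ctla4, an inhibitory receptor, was lower at 773 and 307 CPM, but its log2 fold ran from -1.48 to -0.15 over the settings run. The co-stimulatory receptor genes Tnfrsf4 (122 and 343 CPM) and Tnfrsf18 (196 and 445 CPM) were higher. Of the T cell subset list 5 of 16 compared were lower (background 11.4%) and 0 higher (median -0.46). Among the lower ones was Lef1, a factor of naive cells, with a log2 fold of -1.51.

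The lowest T cell genes were Coro2a and Trim12a, both at 0 UMIs in CT26 and at least 85.0-fold lower, then Cpm (carboxypeptidase M), Odc1, Apobec3 and Lmo4. Odc1, the first enzyme of polyamine synthesis, was at 848 and 77.8 CPM. Lmo4, a transcriptional co-factor, was at 893 and 91.2 CPM. Cxcr3, the receptor for Cxcl9 and Cxcl10, had 3 and 125 UMIs, a ratio of 3.27 (1.09 to 16.1), whose interval includes values below 2.

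Of the genes called higher, the CT26 level lay above all 3 of the 5555 libraries in 65.9% in cDC1s, 89.6% in cDC2s, 73.5% in CCR7+ DCs, 86.2% in NK cells and 88.8% in T cells. Of those called lower, it lay below all 3 in 76.5%, 95.2%, 80.3%, 80.6% and 90.4%. Over all compared genes the CT26 level lay above all 3 in 23.5%, 27.2%, 22.6%, 29.8% and 30.5%, and below all 3 in 32.6%, 47.8%, 37.1%, 33.9% and 37.9%, in the same order of classes. The called genes were chosen to lie above or below 1 of these 3 libraries, and the 5555 libraries are 3 conditions and not replicates, so these shares describe position only. The NK cell shares include the NK-depleted library, whose cells under that name did not carry NK markers.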

How the data were processed

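Single-cell RNA of CD45+ tumour cells was analysed from the authors' deposited matrices and annotation. Cell Ranger 3.0.2, Partek and mm10 are named per the submitters' processing notes, and cells loaded were 16000 to 18000 for 5555 and 25000 for CT26, per the labels. The values deposited are log2(CPM + 1), as read from the matrices themselves, whose cells sum to between 999976 and 1000025 CPM after the log2 is undone. Whole UMIs were recovered for 99.9% of values in each matrix (tolerance 0.1 UMI), and 17 genes that were not whole were left out of the named genes. Of the 5555 matrix, 36 cells without annotation and 18 cells that share 9 barcodes were left out. No doublet caller was run and released RNA was not subtracted. Reads of both strains were aligned to a C57BL/6 reference, and its effect on BALB/c reads was not tested.

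Mean CPM over the cells of a class was compared on the log2(CPM + 5) scale in genes seen in 10% of cells of either library, relative to the class median where that exceeded 0.1, and a 2-fold difference was called. The result is a description of 2 libraries. Intervals on UMI ratios are exact conditional binomial, and those on shares Clopper-Pearson (95%). A gene at 0 UMIs was set to 3 counts per library class for a lower bound.

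Named genes were the 8 highest and 8 lowest of each class with 10 or more UMIs and seen in 10% of cells on the higher side, up to 4 members of each described list with the largest absolute fold, class markers, the 8 highest and 8 lowest across classes, and a fixed set. Receptor segments, haemoglobin, mitochondrial and ribosomal protein genes were left out of the ranked ones. The members and lists were chosen with earlier results of these data known. Alternatives were other pseudocounts, detection filters, centring, cell weights, depths and cell filters. Promoters are the 250 bases before the RefSeq start. The code was tested on simulated data. Python 3.11.15, numpy 2.4.6, scipy 1.17.1, pandas 2.3.3 and matplotlib 3.10.9 were used.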

Additional observations from a re-analysis of the deposited data

How the results depend on the processing

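Of the single-gene log2 folds recomputed, 3947 moved by less than their counting error, 833 moved by more and 3 reversed, counted where a gene past 2-fold changed sign. Of 101 folds short of 2-fold, counted per gene and class, 20 also changed sign under some alternative. Of the list medians 854 moved by no more than 1.5-fold and 51 by more. The reversals were Cxcl2 in NK cells without cells holding genes of another lineage (0.23), and Gzma in T cells from mean log2 values per cell (0.68) and thinned to 2000 UMIs (3.98). The cause was not tested.

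The type I interferon median stayed positive under each alternative run. In cDC1s it was 3.40 with a pseudocount of 1 CPM, 2.04 with 20 CPM, 1.64 from mean log2 values per cell and 3.50 thinned to 2000 UMIs. It was 2.19 in cDC2s with a pseudocount of 20 CPM, 1.47 in NK cells with no detection filter and 1.76 in T cells from mean log2 values. Medians of MHC class I genes in cDC1s and of MHC class II genes in cDC1s and cDC2s, at -0.01, -0.15 and 0.19, changed sign under some alternatives.

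Counts of called genes depended on the settings. With a pseudocount of 20 CPM, genes higher and lower were 353 and 371 in cDC1s, 267 and 210 in cDC2s, 423 and 327 in CCR7+ DCs and 185 and 272 in NK cells, with 243 lower in T cells. Thinned to 2000 UMIs, 480 were lower in cDC1s, 218 higher in cDC2s, 456 higher in NK cells, and 944 higher and 784 lower in T cells, where 17 of 66 T cells and 64 of 137 NK cells of 5555 Ptgs+/+ remained. With a 5% filter, 1130 were higher in cDC1s, 1042 in CCR7+ DCs, 633 in NK cells and 778 in T cells, with 706 lower in T cells. With a 20% filter, higher and lower were 404 and 538 in cDC1s, 407 and 418 in CCR7+ DCs, 149 and 184 in NK cells and 128 and 159 in T cells, with 290 higher in cDC2s. With no filter, 1345 were higher in cDC1s and 864 lower in cDC2s, and higher and lower were 1102 and 1772 in CCR7+ DCs, 941 and 1217 in NK cells and 1537 and 2235 in T cells. From mean log2 values, NK cells had 466 higher and 285 lower.

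Centring moved the split of calls. With the opposite choice, higher and lower were 323 and 686 in cDC2s (32.0% higher, from 50.4%), 446 and 1000 in CCR7+ DCs (30.8%, from 49.8%), 363 and 353 in NK cells (50.7%, from 39.8%) and 337 and 485 in T cells (41.0%, from 52.2%). In cDC1s they were 848 and 695 (55.0%, from 46.9%), so the larger side changed. Within the matched classes alone, the share ratios were 2.04 for cDC1s, 0.278 for cDC2s, 0.458 for CCR7+ DCs, 2.17 for NK cells and 2.57 for T cells. Thinning to 1000 UMIs was chosen after seeing the data, because 2000 left out most T cells. Depth limits NK and T cells most, at medians of 1835 and 1642 UMIs in 5555 Ptgs+/+. No paired analysis was possible because each group is 1 library, and for the same reason no library could be left out.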

Other observations

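Heat shock genes, which encode protein-folding chaperones, had 17 of 50 comparisons over the 5 classes higher in CT26 and 0 lower, with class medians from 0.75 to 1.07. Most members were within 2-fold, and the share of all compared genes called higher was 7.09 to 13% by class. The sum of the list in NK cells was 3467 CPM in 5555 Ptgs+/+, 3590 CPM in Ptgs-/- and 6493 CPM in CT26. Hspa1a, the inducible chaperone HSP70, was at 47.4 and 294 CPM in NK cells and 120.3 and 461 CPM in T cells. In CCR7+ DCs it was at 129 CPM in 5555 Ptgs+/+, 352 and 390.2 CPM in the other 5555 libraries and 444 CPM in CT26, so 5555 Ptgs+/+ was the lowest of the 4 there. Nuclear genes of oxidative phosphorylation, the respiratory chain, had 11 of 99 comparisons higher and 0 lower, a share of higher calls near that of all compared genes, with medians of 0.33 to 0.64. Cox8a, a subunit of cytochrome oxidase, was at 419.6 and 898 CPM in cDC1s, 370.4 and 917 CPM in cDC2s and 500 and 1116 CPM in NK cells.

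The interferon-induced membrane protein genes of the Ifitm family did not move together. Ifitm3 was at 21.6 CPM in 5555 Ptgs+/+ T cells, 29.0 and 21.7 CPM in the other 5555 libraries and 527 CPM in CT26 T cells. In cDC2s it was at 2707, 1077, 1204 and 5415 CPM in the same order of libraries, while Ifitm1 was at 5064, 202, 282 and 634 CPM. The NF-kB pathway list had 9 of 71 comparisons higher and 7 lower over the 5 classes. Its member Tnfaip3, an inhibitor of NF-kB signalling, was lower in CT26 NK cells (1089 and 214 CPM) and T cells (1596 and 470.1 CPM). Of DC migration genes 1 of 43 comparisons was higher and 9 lower, and Marcks, an actin-binding kinase substrate, was at 3552 CPM in 5555 Ptgs+/+ CCR7+ DCs, 3119.8 and 3651 CPM in the other 5555 libraries and 1458 CPM in CT26. Co-stimulation genes had 4 of 29 comparisons higher and 2 lower, immunoregulatory genes 3 of 28 higher and 5 lower, and checkpoint receptor genes 3 of 26 higher and 7 lower. Over all compared genes 7.09 to 13% were called higher and 6.97 to 13.2% lower by class. The NF-kB and co-stimulation shares were near these. Slamf1, a co-stimulatory receptor, was at 14.6 CPM in 5555 Ptgs+/+ T cells, 179.9 and 124 CPM in the other 5555 libraries and 129 CPM in CT26, so the 5555 Ptgs+/+ library was the lowest of the 4.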
